A study of Mus musculus with 2 samples.

Results

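The 40 genes described here encode the folding, sensing and disposal machinery of the endoplasmic reticulum (ER). They were taken from a fixed list of symbols, chosen with earlier results of these data known. Matched through Ensembl identifiers to GENCODE M21, all 40 of them were found among the 35275 genes of the count table. By role, 10 encode chaperones and cochaperones, 9 disulfide isomerases and related proteins, 6 stress sensors and regulators, 10 parts of ER-associated degradation (ERAD), and 5 parts of the translocon and signal peptidase. The cells were AML12, an immortalised hepatocyte line from the liver of a mouse transgenic for human transforming growth factor alpha, which the labels describe as CD-1, male and 3 months old. Control cells, titled Young, received no treatment. Senescent cells, titled Old, received 1 mM hydrogen peroxide for 1 h on the first day and 0.75 mM for 1 h on each later day, with 23 h of recovery after each exposure and 6 days of exposure in all. The paper places each exposure in serum-free medium and each recovery in complete medium, which holds dexamethasone. It describes no serum-free step for control cells, so that step and the peroxide cannot be told apart. RNA from 3 samples was pooled into 1 library per condition, so there is no replicate spread and no p-value, and every interval below covers counting error only.

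The control library held 28021941 reads on genes and the senescent library 25738075, with 17403 and 17592 genes detected. Ratios are senescent over control on the log2 scale after TMM scaling, with a prior count of 1. Their 95% exact Clopper-Pearson intervals follow in parentheses, and 14383 genes with at least 10 reads over both libraries entered the comparison. A gene was counted lower or higher when its log2 ratio passed 1.5 in that direction and the interval left out 0. The median over all 14383 genes was -0.02, so a ratio near 0 lies at the middle of the transcriptome. The hepatocyte label was compared with its markers. Krt8 had 119403 control and 144783 senescent reads and Hnf4a, a liver transcription factor, 8187 and 7705, while Alb (albumin) had 32076 and 2917 and the asialoglycoprotein receptor gene Asgr1 2 and 1. Of the bile duct markers, Krt19 had 22885 and 19177 reads (log2 ratio -0.03), Spp1 25430 and 10580 (-1.04), Krt7 3248 and 1026 (-1.43), Sox9 3602 and 4454 (0.54) and Epcam 0 and 1, all but Krt19 being named after their values were seen. The macrophage list summed to 76 and 156 reads with Ptprc highest (27 and 76) and Adgre1 and Clec4f at 0. The fibroblast and endothelial lists were led by Col1a1 (21 and 1) and Pecam1 (4 and 4). The part of these markers in the ER genes' ratios was not tested.

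As background, secreted and membrane proteins enter the ER through the SEC61 translocon, lose their signal peptide to signal peptidase, and fold with the help of chaperones and disulfide isomerases. Proteins that fail to fold are recognised, drawn back through the membrane, tagged with ubiquitin and destroyed, which is ERAD. When unfolded proteins accumulate, BiP leaves the sensors IRE1, PERK and ATF6 and the unfolded protein response (UPR) begins. Cleaved ATF6 and spliced XBP1 then drive genes of folding and disposal, and PERK acts through ATF4. Hepatocytes carry a large ER because they secrete most plasma proteins.

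ATF6 acts with the factor NF-Y on the ER stress response element (ERSE), here searched as CCAAT, 9 bases, CCACG, and on a second form (ERSE-II), ATTGG, 1 base, CCACG. Both were searched on both strands of RefSeq promoter windows of GRCm38.p6, from 250 bases before to 50 bases after each annotated start. ATTGG is CCAAT read on the other strand, so the forms share their fixed letters. Windows were found for 34 of the 40 genes, and 11 of them held a match. The sites are shown because they fell mostly in the genes with the most negative ratios (below). Each is written 5′ to 3′ on the strand that carries the motif, with the fixed letters in capitals and the free bases in lower case.
Hspa5, chr2:34772025-34772043, plus strand: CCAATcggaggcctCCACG
Herpud1, chr8:94386377-94386387, plus strand: ATTGGgCCACG
Hsp90b1, chr10:86705638-86705656, minus strand: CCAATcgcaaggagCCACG
Hsp90b1, chr10:86705533-86705551, plus strand: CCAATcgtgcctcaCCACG
Pdia6, chr12:17266491-17266509, plus strand: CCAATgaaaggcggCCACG
Calr, chr8:84847075-84847093, plus strand: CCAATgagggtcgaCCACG
Dnajc3, chr14:118937827-118937845, plus strand: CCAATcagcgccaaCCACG
Creld2, chr15:88819520-88819538, minus strand: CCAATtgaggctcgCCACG
Dnajb11, chr16:22857852-22857862, plus strand: ATTGGcCCACG
Syvn1, chr19:6046532-6046550, plus strand: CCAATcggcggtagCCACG
Canx, chr11:50325800-50325818, minus strand: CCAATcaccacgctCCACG
Derl3, chr10:75893242-75893260, minus strand: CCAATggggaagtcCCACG
Of these 12 sites, 10 lay outside the exons that GENCODE M21 gives the gene. The sites of Hspa5 and Dnajb11 lay inside an exon annotated as untranslated. GENCODE places the first exon of Hspa5 further upstream than RefSeq does, and the Dnajb11 site lies after the start that RefSeq gives.

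Chaperone and isomerase genes mostly had log2 ratios below 0, while the genes of the stress sensors lay on both sides of 0. Of the 39 genes that reached 10 reads, 3 were counted lower (Sdf2l1, Hspa5 and Herpud1) and 0 higher, against 5.60% of all tested genes counted lower and 2.71% counted higher. The share of 3 in 39 is close to that background. With a threshold of 1 in place of 1.5, 10 of the 39 were counted lower and 0 higher, against 9.98% and 5.09% of all genes. These are abundant genes, 37 of the 40 having at least 1000 reads, and among the 7804 genes of that depth 1.70% were counted lower at 1.5 and 4.15% at 1. The median ratio of the 39 was -0.50, and -0.48 without Hspa5. That of all genes was -0.02, and that of the genes with at least 1000 reads 0.08. The interval lay below 0 in 33, above 0 in 4 and across 0 in 2, and the 33 are 84.6% of the tested members. An interval below 0 was found in 34.6% of all 14383 genes and in 34.2% of those with at least 1000 reads. In a bulk library, fewer cells of a type and less RNA per cell cannot be told apart.

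As a whole, the 40 genes took 427159 control reads and 209789 senescent reads, or 1.52% and 0.815% of each library. On the CPM scale (reads per library, TMM-scaled) the sum was 14689 in control and 8459 in senescent, and Hspa5 alone made up 32.6% of that difference. Levels between genes are compared below as TPM, reads per base of merged exon scaled to 1 common total without TMM. The summed level of the chaperones was 6731 TPM in control and 2801 TPM in senescent, that of the isomerases 4343 and 2677 TPM, and that of ERAD 1295 and 744 TPM. The sensors together held 471 and 382 TPM and the translocon genes 861 and 685 TPM.

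**Figure D1:**
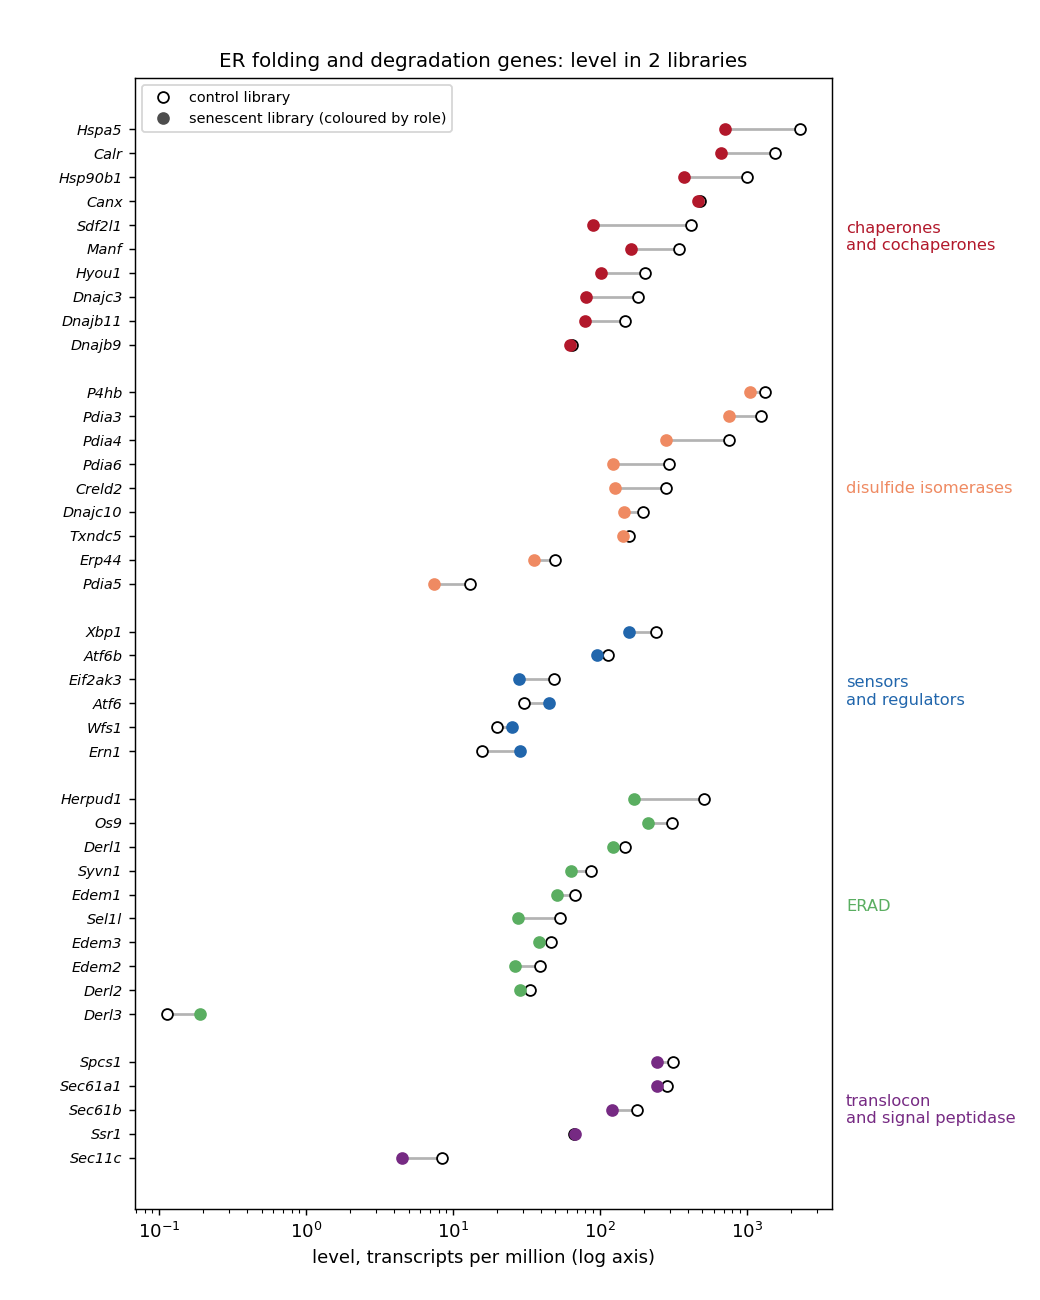
Level of each of the 40 genes in TPM on a log axis, grouped by role, with an open circle for the control library and a filled circle for the senescent library (1 library each, so no error bar). The line between the circles is longest for Sdf2l1, Hspa5 and Herpud1 among genes above 1 TPM, and the filled circle lies to the right in Ern1, Atf6 and Wfs1 and, by little or on few reads, in Ssr1 and Derl3.

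Among the chaperones, Hspa5 encodes BiP, the Hsp70 of the ER lumen that also holds the sensors inactive. It had 87141 reads in control and 23935 in senescent, 3.10 times lower (3.06 to 3.15), a log2 ratio of -1.63 (-1.66 to -1.61). Its share of all reads was 0.311% and 0.0930%. By level it ranked 36 among all genes in control, at 2322 TPM, and 182 in senescent, at 716 TPM. It was the most abundant of the 40 genes in control and the 3rd in senescent, behind the isomerase genes P4hb and Pdia3. The gene lies on chromosome 2 at 34771970 to 34777547, plus strand (GRCm38).

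Sdf2l1, a small partner of BiP cochaperones on chromosome 16 at 17130138 to 17132383, had the most negative ratio of the 40. It had 4111 control and 787 senescent reads, 4.45 times lower (4.13 to 4.81), a log2 ratio of -2.15 (-2.27 to -2.05). In level it went from 418 to 89.9 TPM and from rank 9 to rank 22 among the 40.

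The large calcium-binding chaperones differed among themselves. Hsp90b1 (GRP94, the Hsp90 of the ER) had 35959 and 11970 reads and a log2 ratio at -1.36 (-1.39 to -1.33). Calr (calreticulin, the soluble lectin chaperone) had 39807 and 15134 reads and a log2 ratio at -1.17 (-1.19 to -1.14). Canx, the membrane-bound lectin that acts in the same glycoprotein folding cycle as calreticulin, had 20044 and 17230 reads and a log2 ratio at 0.01 (-0.02 to 0.04), which turned negative under total-count and upper-quartile scaling. Per length, Calr stood at 1558 TPM against 481 TPM for Canx in control, and at 665 against 465 TPM in senescent.

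The cochaperones of BiP ranged widely. Dnajc3 (p58IPK), which brings substrates to BiP, had 8325 and 3285 reads and a log2 ratio at -1.11 (-1.17 to -1.05). Dnajb11 (ERdj3), another substrate-delivering cochaperone, had 4249 and 2034, giving a log2 ratio at -0.83 (-0.91 to -0.76). Hyou1, the exchange factor that resets BiP, had 13075 and 5835, giving a log2 ratio at -0.93 (-0.98 to -0.89). Dnajb9 (ERdj4), which binds BiP to IRE1, differed from these. It had 1461 and 1270 reads and a log2 ratio at 0.03 (-0.08 to 0.14) whose sign changed under total-count and upper-quartile scaling. Manf, a secreted and ER-resident BiP partner, had 10889 and 4541 reads and a log2 ratio at -1.03 (-1.08 to -0.98). Over the 10 chaperone genes, 2 were counted lower (5.60% of all genes, 1.70% of those with at least 1000 reads). Past -1, 6 were lower (9.98% and 4.15%), and 8 had an interval below 0 (34.6% and 34.2%). The median log2 ratio of the 10 was -1.07, against -0.02 for all genes and 0.08 for those with at least 1000 reads.

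**Figure D2:**
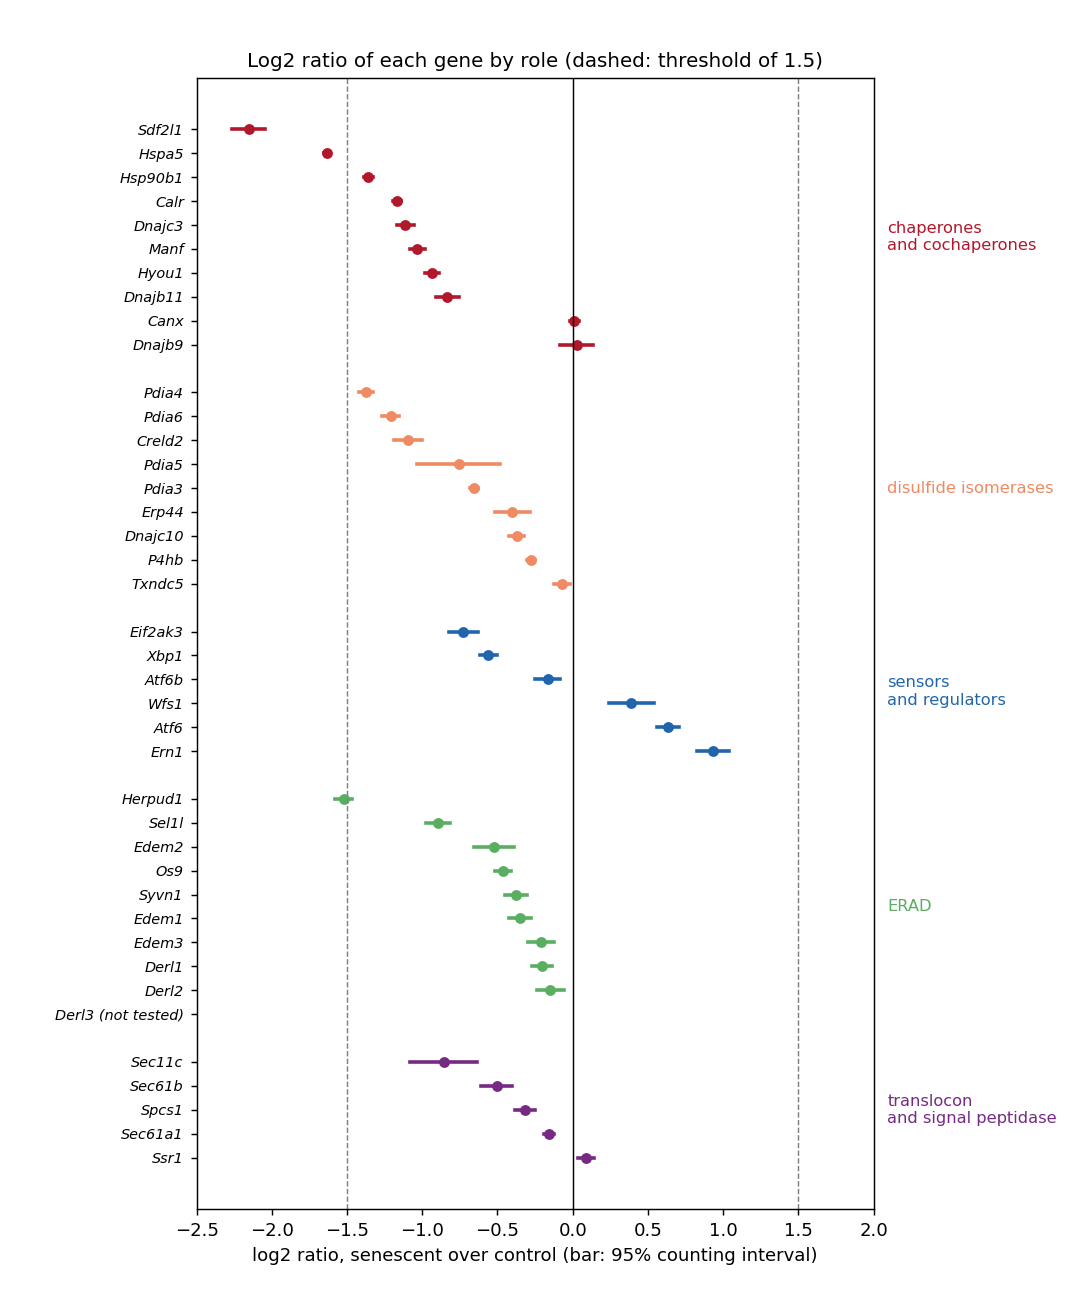
Log2 ratio of senescent over control for each gene, grouped by role, with bars for the 95% counting interval and dashed lines at -1.5 and 1.5. The 9 isomerase genes and the 9 tested ERAD genes all lie left of 0, the sensors fall on both sides, and Derl3 had too few reads to be tested. Canx and Dnajb9 touch 0, and together with Ssr1 they change sign under total-count scaling.

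All 9 isomerase genes had an interval below 0 (34.6% of all genes), with a median ratio of -0.66. Of these 9, 0 passed -1.5, against 5.60% of all genes counted lower. Pdia4 (ERp72), which carries several thioredoxin-like domains, was the closest to that threshold from outside. It had 16272 and 5352 reads and a log2 ratio at -1.37 (-1.42 to -1.33). Pdia6 (P5), an isomerase that works with BiP, had 9842 and 3627 reads and a log2 ratio at -1.21 (-1.27 to -1.15). Creld2, a secreted ER stress protein with isomerase activity, had 3405 control reads against 1361, and the interval of its log2 ratio (-1.09) stayed below -1.

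The most abundant isomerase genes had ratios nearer to 0. Pdia3 (ERp57), the partner of the lectin chaperones, had 34962 and 18896 reads and a log2 ratio at -0.66 (-0.68 to -0.63). P4hb, which encodes protein disulfide isomerase itself, had 33718 and 23724 reads and a log2 ratio at -0.28 (-0.30 to -0.25), and at 1328 and 1050 TPM it took rank 1 among the 40 genes in the senescent library. Of the rest, Pdia5 had 323 and 163 reads (-0.75, interval -1.04 to -0.48). Erp44, which retains other proteins in the early secretory pathway, had 1500 and 969 reads (-0.40). Dnajc10, a reductase for ERAD substrates, had 8735 and 5755 (-0.37), and Txndc5, a thioredoxin-like protein, 6347 and 5145 (-0.07, interval -0.13 to -0.02). The neighbours Pdia3 and P4hb in order of level are not separated by any replicate spread, since none exists.

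The sensors did not share a direction. Ern1, which encodes the kinase and endoribonuclease IRE1 alpha (chromosome 11, 106394650 to 106487852), had the most positive log2 ratio of the 39 tested members. It had 1139 and 1854 reads and a log2 ratio at 0.93 (0.83 to 1.04). Atf6, the membrane-bound transcription factor (chromosome 1, 170704674 to 170867771), had 2490 and 3293 reads and a log2 ratio at 0.63 (0.56 to 0.71). Wfs1 (wolframin), an ER membrane protein that limits ATF6 signalling, had 676 and 756 reads and a log2 ratio at 0.39 (0.24 to 0.54).

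The other 3 members of this group lay below 0. Eif2ak3, which encodes the sensor kinase PERK, had 2608 and 1343 reads and a log2 ratio at -0.73 (-0.82 to -0.63). Xbp1, the transcription factor whose mRNA IRE1 splices, had 7009 and 4051 reads and a log2 ratio at -0.56 (-0.62 to -0.51). Gene counts do not separate spliced from unspliced Xbp1. Atf6b, a relative of Atf6, had 2766 and 2101 reads and a log2 ratio at -0.17 (-0.25 to -0.08). Of the 6, 0 passed 1 in either direction, against 9.98% of all genes lower and 5.09% higher. The sensor median was 0.11, and the chaperone median lay 1.18 below it, a difference that library scaling cannot move. In level the sensors were scarce beside the chaperones, with Ern1 at 15.7 and 28.7 TPM, Atf6 at 30.4 and 45.2 TPM, and Xbp1, the most abundant of them, at 243 and 158 TPM.

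In ERAD, all 9 tested genes had an interval below 0 (34.6% of all genes), with a median of -0.38. Herpud1, a ubiquitin-like membrane protein that organises the degradation complex, stood just inside the threshold. It lies on chromosome 8 at 94386438 to 94395377 and had 10582 and 3144 reads, 2.87 times lower (2.76 to 2.99), a log2 ratio of -1.52 (-1.58 to -1.46), so that its interval takes in -1.5. Sel1l, the adaptor of the ubiquitin ligase HRD1, had 4067 and 1866 reads and a log2 ratio at -0.89 (-0.97 to -0.82). Syvn1, the gene of HRD1 itself, had 3742 and 2458 reads and a log2 ratio at -0.38 (-0.45 to -0.30).

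The lectins and mannosidase-like proteins that pick glycoproteins for disposal had ratios nearer to 0 than Sel1l. Edem2 had 1213 and 720 reads (-0.52, interval -0.66 to -0.39), Os9 7209 and 4454 (-0.47), Edem1 3875 and 2594 (-0.35), and Edem3 2634 and 1944 (-0.21). The derlins, channel proteins of the same machinery, had ratios close to that of Edem3. Derl1 had 4358 and 3221 reads (-0.21, interval -0.27 to -0.14) and Derl2 2385 and 1835 (-0.15, interval -0.24 to -0.06). Derl3 had 2 control and 3 senescent reads, at or under the floor of 3 reads, and no ratio is given for it.

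Among the translocon and signal peptidase genes, 4 of 5 had an interval below 0 (34.6% of all genes) and the median was -0.32. Sec11c, a catalytic subunit of signal peptidase, had 512 and 241 reads and a log2 ratio at -0.86 (-1.08 to -0.63). Sec61b, the small subunit of the channel, had 2032 and 1221 (-0.50), while Sec61a1, which forms the pore, had 17190 and 13123 (-0.16, interval -0.19 to -0.13). Spcs1, a noncatalytic subunit of signal peptidase, had 4362 and 2990 (-0.32), and its exons share 252 of 1546 bases with Glt8d1 on the opposite strand. Ssr1, a subunit of the translocon-associated complex, had 6143 and 5564 reads and a log2 ratio at 0.09 (0.03 to 0.14) that was negative under total-count scaling.

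A further grouping followed the transcription factor that textbooks link to each gene. Of 9 ATF6-linked members (Hspa5, Hsp90b1, Hyou1, Calr, Pdia4, Creld2, Sdf2l1, Manf and Herpud1), 3 were counted lower (5.60% of all genes, 1.70% of those with at least 1000 reads), 8 were lower past -1 (9.98% and 4.15%), and the median was -1.36, with Hyou1 at -0.93 the highest. Of 8 XBP1-linked members (Dnajb9, Edem1, Sec61a1, Sec61b, Ssr1, Spcs1, Sec11c and Dnajc3), 0 were counted lower, 1 was lower past -1 (Dnajc3), and the median was -0.33. The medians differed by -1.03. Many genes answer to both factors, and the grouping was drawn up with results of these libraries known and puts all 3 genes counted lower on the ATF6 side, so these counts are a description only.

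**Figure D3:**
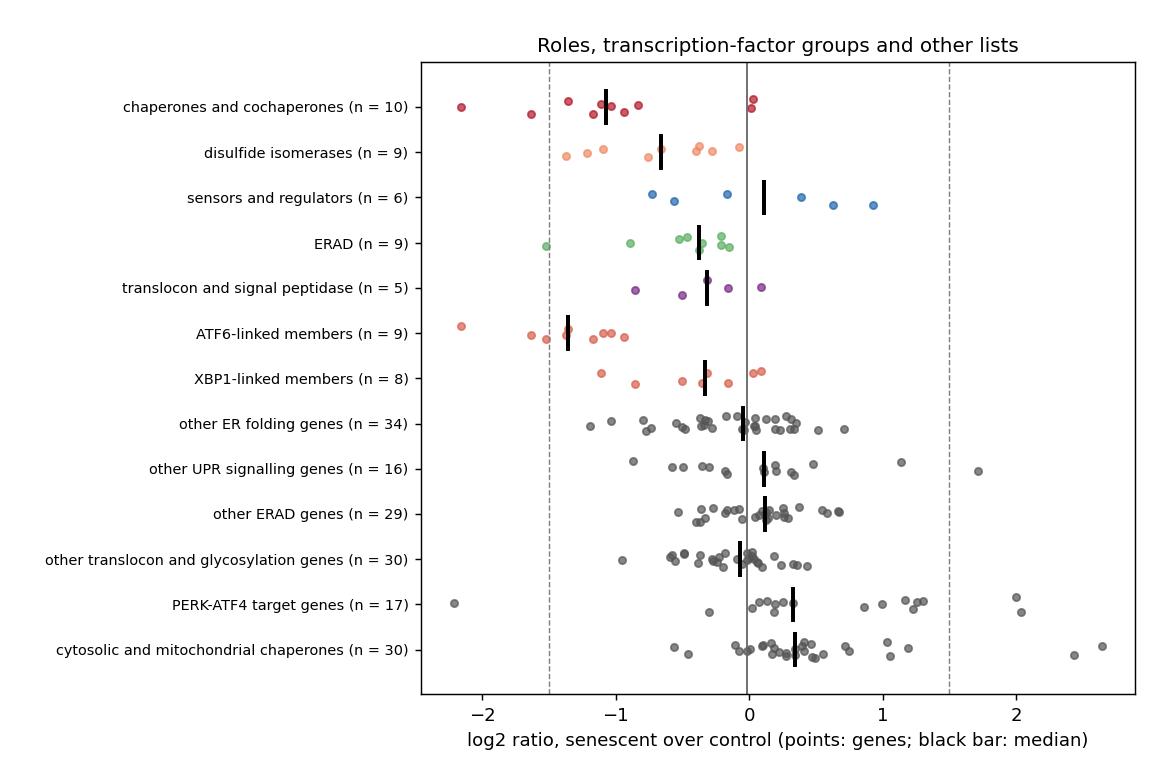
Log2 ratio of senescent over control, with 1 point per tested gene, a black bar for the median of each list, a grey line for the median of all genes and dashed lines at -1.5 and 1.5. The ATF6-linked genes have a median of -1.36 and the XBP1-linked genes -0.33, while the medians of the other ER lists lie between -0.07 and 0.12. All lists were chosen with earlier results of these data known.

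Promoter matches lay mainly in the chaperone genes. An ERSE was found in 9 of 34 genes with a window (26.5%), against 37 of 27025 genes of the whole table (0.137%), and an ERSE-II in 2 of 34 against 12 of 27025 (0.0444%). The element was first described in promoters of this class, so the excess is no independent finding. By role, 6 of 8 chaperone windows held either form, 2 of 9 isomerase windows, 3 of 9 ERAD windows, 0 of 5 sensor windows and 0 of 3 translocon windows. Measured from the annotated start, the Hspa5 site spans -65 to -47, the Herpud1 site -52 to -42 and the Calr site -162 to -144, and Hsp90b1 has a pair of sites at -212 to -194 and -107 to -89.

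The 10 tested members with either form had a median ratio of -1.14, and the 23 tested members with a window but no match had one of -0.37. Members without a window are in neither group. Matches were unevenly spread over the roles (6 of 8 chaperone windows, 0 of 5 sensor windows), so site and role cannot be told apart. Whether the element bears on the ratio was not tested. Canx, with a complete ERSE at -145 to -127, had a ratio of 0.01 (negative under total-count and upper-quartile scaling). Syvn1, also with an ERSE, had one of -0.38. Outside the list, 15 tested genes with either form had a median of -0.03. The shorter core TGACGTG, bound by XBP1 and ATF6, occurred in 2 of 34 windows (Hspa5 and Txndc5, 5.88%) against 2.22% of all genes. Sdf2l1 and Pdia4 had windows without any ERSE match, which says only that these letters are absent from these 300 bases.

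**Figure D4:**
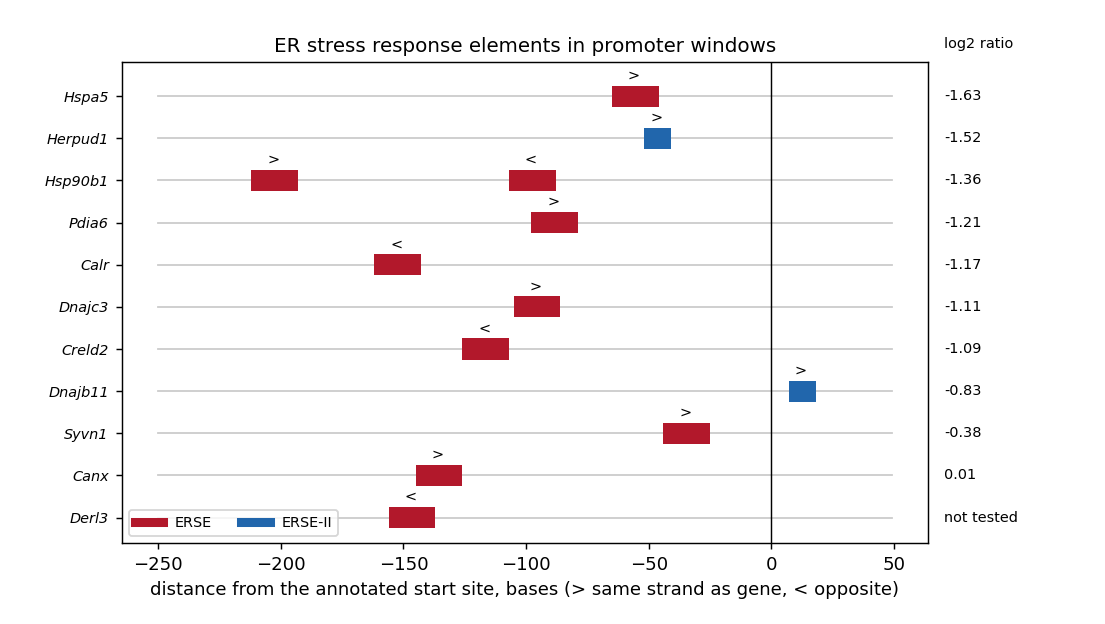
Position of ERSE (red) and ERSE-II (blue) matches relative to the annotated RefSeq start, in bases, for the 11 genes with a match. The 10 tested genes are ordered by log2 ratio (right), and Derl3, not tested, is placed last. Arrowheads give the strand relative to the gene. The sites lie between -212 and -26 except that of Dnajb11, which lies at 7 to 17, and the ratio of Canx (0.01) is negative under total-count and upper-quartile scaling.

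By median, genes of the same pathways outside the list were closer to 0 than the members (-0.50). The members and these lists were chosen with earlier results of these data known, so the contrast is a description only. Of 34 other ER folding genes, 0 were counted higher (2.71% of all genes) or lower (5.60%), and the median was -0.05. The lowest were Prdx4, an ER peroxiredoxin that passes oxidising power to isomerases (1431 and 535 reads, -1.19), Txndc11 (-1.03) and Fkbp7 (-0.79). The highest was Ero1l, the oxidase that recharges protein disulfide isomerase (1842 and 2577 reads, 0.71, interval 0.63 to 0.80), followed by Tmx1 (0.52) and Uggt2 (0.35). Ppib, the ER cyclophilin, had 7997 and 4828 reads (-0.50).

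Of 29 other ERAD genes, 0 were counted in either direction and the median was 0.12, from Selenos (-0.53) to Herpud2, a relative of Herpud1 (1067 and 1453 reads, 0.67). Of 30 other translocon and glycosylation genes, 0 were counted and the median was -0.07, from Magt1, a subunit of the oligosaccharyltransferase (7482 and 3308 reads, -0.95), to Sec62 (0.44). Of 16 other UPR signalling genes, 1 was counted higher (2.71% of all genes). It was Stc2, a secreted glycoprotein induced in the UPR, with 94 and 266 reads and a ratio of 1.72 (1.39 to 2.09). The lowest was Creb3l1, an ER-anchored relative of ATF6 (196 and 91 reads, -0.87), and the median was 0.11.

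Genes listed as targets of the PERK and ATF4 branch mostly had ratios above 0. The gene of PERK, Eif2ak3, had a ratio of -0.73, and whether PERK acts on these targets here was not tested. Of the 17 targets, 2 were counted higher (2.71% of all genes) and 1 lower (5.60%). A ratio above 0 was found in 15 of them, against 7038 of all 14383 genes, and their median was 0.33. The interval lay above 0 in 13, against 4888 of all genes. Of the 7804 genes with at least 1000 reads, 42.8% had a ratio below 0, and their median was 0.08. Atf4 itself had 4820 and 10151 reads and a log2 ratio at 1.30 (1.25 to 1.35). Chac1, a glutathione-degrading enzyme, had 251 and 883 reads (2.04, interval 1.84 to 2.25), and Slc7a11, the cystine importer, had 256 and 874 (log2 ratio interval 1.80 to 2.21). Ddit3, the gene of CHOP, had 874 and 936 (0.33, interval 0.19 to 0.46). Ddit4, an inhibitor of mTORC1, ran the other way, with 11394 and 2096 reads (-2.21).

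Chaperones outside the ER also had mostly positive ratios. Of 30 cytosolic and mitochondrial chaperone genes, 2 were counted higher (2.71% of all genes) and 0 lower (5.60%). A ratio above 0 was found in 25 of them, and their median was 0.34. Of all 14383 genes, 7038 had a ratio above 0. Of the 7804 genes with at least 1000 reads, 42.8% had a ratio below 0. The counted pair was Hspa1a and Hspa1b, near-identical genes of the inducible Hsp70, at 2.65 and 2.43, and the reads of one may have been given to the other. Dnajb4 (-0.56) and Trap1 (-0.46) were the lowest. The summed level of this list was 10148 TPM in control and 12923 TPM in senescent, against 13701 and 7289 TPM for the 40 ER genes.

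The proteins that this machinery folds are in part the plasma proteins of the liver. Of 31 tested genes of secreted liver proteins, 10 were counted lower (5.60% of all genes) and 3 higher (2.71%). Their median log2 ratio was -0.91, and the list had 248625 control and 143500 senescent reads. The lowest were the acute-phase genes Saa3 (-6.08, on 626 and 7 reads), Lcn2 (-4.86) and Hp (-4.79). The 3 counted higher, named after their values were seen, rest on few reads: Fga on 8 and 34, Serpinc1 on 3 and 19, and Serpina1c, whose near-identical relatives make its reads uncertain, on 4 and 14. Of the abundant genes, which were not counted higher, Clu had 46990 and 74321 reads (0.89) and Apob, the large apolipoprotein of VLDL, 22158 and 25094 (0.41). This list and the 40 ER genes both had a median below 0, and whether one bears on the other was not tested.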

How the data were processed

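RNAseq was measured in control and H2O2-senescent AML12 cells, with poly(A) selection and 1 library of 3 pooled samples per condition. The authors deposited un-normalized read counts per Ensembl gene. The submitters' processing notes name CASAVA, STAR, DESeq2, edgeR and mm10 without stating their roles; the counting tool, annotation and strand setting are not given in the sources used here. The columns were matched to the samples by the initials of their titles. Reads were scaled by TMM (edgeR 4.0.16, R 4.3.3). With 1 library per group no p-value was computed; the threshold of 1.5 follows the study's methods. Intervals are 95% Clopper-Pearson intervals for the part of each gene's reads that came from the senescent library (scipy 1.17.1). TPM used merged GENCODE M21 exon lengths. The ratio code was tested on simulated data. All 40 members were named, and from each other list up to 3 highest and 3 lowest genes with at least 100 reads, plus fixed genes (Atf4, Ddit3, Ppib, Ero1l and markers). The members and lists were chosen with earlier results of these data known. Of 38 RefSeq windows for the members, 34 had their last 20 bases in a GENCODE transcript. Those of Pdia4, Dnajc3 and Erp44 did not. No window was used for Sec61a1, Sec11c, Manf, Derl1, Atf6 or Hyou1. Protein sequences were not analysed here. Exons of Hsp90b1, Pdia3, Pdia4, Pdia6, Dnajb9, Manf, Eif2ak3, Syvn1, Derl2, Txndc5, Sec61a1 and Spcs1 overlap another gene, and without a stated strand setting their reads may be shared.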

Additional observations from a re-analysis of the deposited data

How the results depend on the processing

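With 1 library per condition no alternative can stand in for replicate error. Under total-count scaling, which lowered the median of all genes by 0.11, the median ratio was -0.61 for all members, -1.18 for chaperones, -0.77 for isomerases, -0.48 for ERAD genes and -0.42 for translocon genes, and the sensor median was near 0 (0.00483). Upper-quartile scaling gave the isomerases -0.70. A threshold of 1 gave 10 members counted lower and a threshold of 2 gave 1 (Sdf2l1). An assumed coefficient of variation of 0.4 between samples left 2, without Herpud1, whose widened interval took in 0. Members with ratios nearer to 0 than Herpud1 would take in 0 as well. The 33 members with an interval below 0 therefore hold for counting error only. Under DESeq2 size factors, other read minimums (1 or 100) and a smaller or larger prior count, Sdf2l1, Hspa5 and Herpud1 remained the members counted lower and 0 were counted higher. Canx and Dnajb9 changed sign under total-count and upper-quartile scaling, and Ssr1 under total-count scaling. Of 200 single-gene values under alternatives, 161 stayed inside the gene's counting interval and 39 left it. All 39 came from total-count scaling, under which most genes left their interval, and from upper-quartile scaling. Under DESeq2 size factors and the other prior counts the shifts were small beside the intervals, so the 161 overstates stability. The sign of counted genes (0 changed) was no test, because the one nearest to 0, Herpud1 at -1.52, lies far beyond a shift of 0.11. The grouping by ATF6 and XBP1 was added after seeing the data, and no library scaling can move its difference of medians.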
